A study of Mus musculus with 8 samples.

Results

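Transcripts of 9 genes known from dendritic cells were followed through 8 sequencing libraries of phagocytes from the injured mouse retina: Flt3, Zbtb46, Batf3, Irf4, Cd209a, Xcr1, Ccr7, Ccl17 and Ccl22. They were picked by symbol, and all 9 are among the 22549 gene symbols used. The libraries comprise 4 of infiltrating macrophages, numbered 5 to 8 in their titles, and 4 of microglia, which are the macrophages that live permanently in neural tissue, numbered 1 to 4. Every library, microglial ones included, comes from mice of about 5 months carrying both Msi1-CreERT2/+ and R26R-DTA/+ on a mixed background of C57BL/6 and 129, and was collected on day 7 after the injury. Msi1-CreERT2 is a tamoxifen-inducible Cre recombinase driven from the Musashi-1 gene, and R26R-DTA makes diphtheria toxin A, which kills a cell, wherever that recombinase has acted. Uninjured retina was not analysed here, so the levels describe injured tissue. Titles mark the macrophage libraries as GFP, although the genotype lists no GFP allele, and how the cells were sorted is not given in the sources used here. Whether each library is a different animal is not stated. The p-values below therefore reflect library-to-library spread alone, and that spread may be technical.

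Dendritic cells take up antigen in tissues and present it to T cells on MHC class II. Conventional dendritic cells grow under Flt3, the receptor for the cytokine Flt3 ligand, and carry the transcription factor Zbtb46, which monocyte-derived macrophages generally lack. One branch depends on Batf3 and displays the chemokine receptor Xcr1, and the other leans on Irf4 and includes cells with the lectin receptor Cd209a. On maturation, dendritic cells put up Ccr7, the receptor that guides them to lymph nodes, and some make Ccl17 and Ccl22, chemokines that attract T cells through their receptor Ccr4. None of these genes is exclusive to dendritic cells. Monocyte-derived cells can make Cd209a, Ccl17 and Ccl22, and lymphocytes use Irf4 and Ccr7.

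Because Ccl22 and Ccl17 are near neighbours, and Ccl17 was the single gene of the 9 to pass the test between populations, their promoters are shown, with that of Cd209a as the one in which an IRF-ETS composite motif was found. The sequences run 5′ to 3′ from 250 bases before to 50 bases after the annotated start, and were taken from RefSeq on build GRCm38.p6. Capitals mark matches to 4 motifs searched on both strands: a kappaB-type motif (GGG, any 5 bases, CC), the IRF-ETS motif (GGAA, any 2 bases, GAAA), an AP-1 motif (TGANTCA) and a TATA motif (TATAAA).
Ccl22, chr8:94745434-94745733, + strand: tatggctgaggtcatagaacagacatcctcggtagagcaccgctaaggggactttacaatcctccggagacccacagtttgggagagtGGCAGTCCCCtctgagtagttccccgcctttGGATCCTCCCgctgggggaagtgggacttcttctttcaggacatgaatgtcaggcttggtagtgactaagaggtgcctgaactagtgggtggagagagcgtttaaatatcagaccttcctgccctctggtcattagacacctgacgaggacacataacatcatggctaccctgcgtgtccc
Ccl17, chr8:94810203-94810502, + strand: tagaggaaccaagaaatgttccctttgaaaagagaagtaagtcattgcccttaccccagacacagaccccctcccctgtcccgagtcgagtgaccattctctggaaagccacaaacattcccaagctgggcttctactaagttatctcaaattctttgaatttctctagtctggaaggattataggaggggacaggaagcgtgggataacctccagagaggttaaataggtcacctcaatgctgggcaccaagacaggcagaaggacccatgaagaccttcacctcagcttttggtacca
Cd209a, chr8:3748935-3749234, - strand: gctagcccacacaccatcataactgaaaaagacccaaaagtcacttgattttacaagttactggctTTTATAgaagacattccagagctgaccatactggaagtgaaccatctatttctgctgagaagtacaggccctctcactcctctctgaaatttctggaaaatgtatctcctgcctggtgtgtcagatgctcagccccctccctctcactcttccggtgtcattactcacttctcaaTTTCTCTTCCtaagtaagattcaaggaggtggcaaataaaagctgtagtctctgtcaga
The Ccl22 window held 2 kappaB-type matches, both on the opposite strand, and no match to the other 3 motifs. The Ccl17 window held none of the 4. The IRF-ETS match of Cd209a lies on the opposite strand, with its first printed base at position -9 from the start, and a TATA match on the same opposite strand begins at -184. None of these matches overlap. Among 32851 promoter windows of the same length, 50.8% held the kappaB-type motif, 2.72% the IRF-ETS motif, 7.81% the AP-1 motif and 13.6% the TATA motif. A match describes letters and is not a measured binding site. RefSeq windows were found for 8 of the 9 genes, all but Ccr7.

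The deposited unit was FPKM, which counts fragments relative to transcript length and library size, so levels can be set beside each other across genes. FPKM summed to between 207154 and 512101 in macrophage libraries and between 296110 and 392952 in microglial ones. Depth, estimated from the step that 1 fragment makes in low values, was about 21.4 to 24.3 M fragments in macrophages, 11.5 M in microglia 1 and 18.9 to 20.8 M in microglia 2 to 4. The labels were checked with genes singled out after their values were seen. The microglial transcription factor Sall1 was at most 0.0352 FPKM in macrophages and at least 8.61 in microglia. The monocyte receptor Ccr2 was between 2.64 and 99.4 FPKM in macrophages and at most 1.53 in microglia. Of 10 microglial genes, limma at an adjusted p below 0.05 had 4 lower in macrophages (P2ry12, Sall1, Siglech and Sparc), 0 higher and 6 not called. Tmem119 ranged from 106 to 365 FPKM in macrophages and from 179 to 339 in microglia, and Fcrls and Cx3cr1 overlapped too. Y-linked transcripts of Ddx3y, Eif2s3y, Kdm5d and Uty summed to at most 1.97 FPKM in macrophages and 0.0533 in microglia 4, but to between 11.7 and 25.8 in microglia 1, 2 and 3. Xist, the RNA of the inactive X chromosome of females, ran the other way. It stood at 4.84 to 7.94 FPKM in macrophages and 4.78 in microglia 4, but at most 0.000779 in microglia 1, 2 and 3. Y-linked expression, and by these transcripts apparently the sex of the source, therefore differs along with population in 7 of the 8 libraries. Population and sex cannot be fully told apart. Exact zeros need care, since microglia 2 and microglia 3 each list at 0 a gene that reached at least 20 FPKM in all 7 other libraries. Genes at 0 are called listed at 0.

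The clearest difference lay in the chemokines and in the migration receptor, which were close to absent from microglia. Ccl17, Ccl22 and Ccr7 were higher in each macrophage library than in any microglial library, whereas the other 6 genes overlapped between the populations. Over all 10295 tested genes 5.66% had every macrophage library above every microglial one. In these bulk samples, fewer cells that express a gene cannot be told apart from less of its RNA per cell. Ccl17 was the only one of the 9 genes called higher in macrophages by limma, at an adjusted p below 0.05, and 0 were called lower. Over all tested genes 0.971% were called higher (100) and 0.534% lower (55), or 1.51% in either direction. At an unadjusted p below 0.05, limma had 6 of the 8 tested genes higher and 0 lower, against 10.9% higher and 3.39% lower over all tested genes. Testing needed a mean of 1 FPKM over the 8 libraries. Ccl17, Ccl22, Ccr7, Flt3 and Xcr1, all among those 6, averaged at most 0.663 FPKM in microglia and reached that limit through the macrophage libraries. They could hardly come out lower, so the counts of genes higher or not overlapping are descriptions and support nothing.

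**Figure D1:**
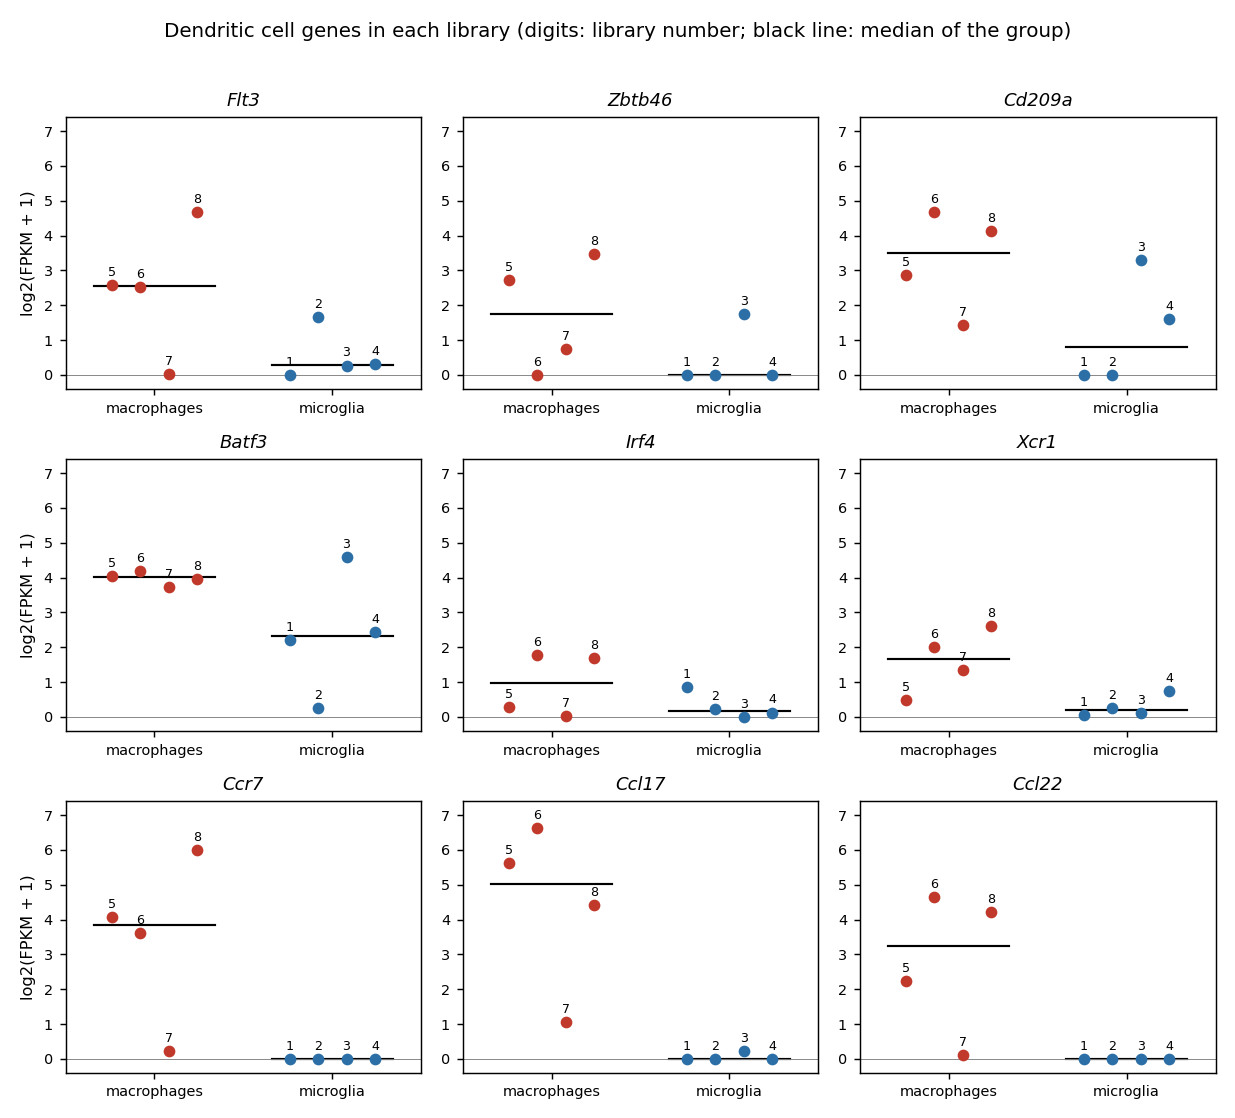
FPKM of each of the 9 genes in each library, on a log2(FPKM + 1) axis, with macrophages (red, libraries 5 to 8) left of microglia (blue, libraries 1 to 4) and the group median as a black line. Ccl17, Ccl22 and Ccr7 sit at or near 0 in microglia, macrophage 7 is, as deposited, the lowest macrophage library for 7 of the 9 genes, and Batf3 peaks in microglia 3.

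Ccl17, a chemokine for T cells bearing Ccr4, lies on chromosome 8 at 97334353 to 97335936 in mm9, the build of the files. It stood at 48.0, 97.5, 1.07 and 20.4 FPKM in macrophages 5, 6, 7 and 8, against 0.164 FPKM in microglia 3 and values listed at 0 in microglia 1, 2 and 4. All 4 macrophage libraries exceeded 1 FPKM, and macrophage 7 was nearest to the microglia. The difference, macrophages minus microglia, was 4.37 ± 0.93 (SE) on the log2(FPKM + 1) scale, with an adjusted p of 0.0241 by limma over all genes. That call was lost without macrophage 5 (adjusted p = 0.0745 by limma), macrophage 6 (0.108), macrophage 8 (0.0594) or microglia 1 (0.0571), and the adjusted p was 0.762 with a term for Y-linked expression. The differences there were 3.98, 3.64, 4.38, 4.35 and 3.58, in the same order. Over 19 alternatives the limma adjusted p ran from 0.000196 to 0.762. An exact permutation test of the 8 libraries gave a two-sided p of 0.0286 for Ccl17, the smallest that 4 against 4 allows.

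Ccl22 shares the receptor Ccr4 with Ccl17 and lies upstream of it on chromosome 8 (97269584 to 97275288 in mm9), across a gap of 59.1 kb. It stood at 3.76, 23.9, 0.0779 and 17.6 FPKM in macrophages 5, 6, 7 and 8 and was listed at 0 in all 4 microglial libraries. Library 6 was highest and library 7 lowest as deposited, as for Ccl17, but library 8 was the highest for Ccl22 under all 3 scalings tried, and library 6 remained so for Ccl17. The fitted difference was 2.80 ± 0.83 (SE) at an adjusted p of 0.128 by limma, and the exact permutation p was 0.0286, again the smallest possible. As microglia are at 0, the size of this difference depends on the added 1 FPKM. Between the pair lies Cx3cl1, the fractalkine gene, which did not exceed 0.615 FPKM in any macrophage library and read 0 in each microglial one. Next after Ccl17, Ciapin1, whose product helps assemble iron-sulfur proteins, ranged from 3.35 to 7.00 FPKM in macrophages and from 0.0486 to 10.95 in microglia (adjusted p = 0.871 by limma).

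Ccr7, the homing receptor for lymph nodes, lies on chromosome 11 (99005513 to 99016391). It stood at 15.7, 11.1, 0.165 and 62.4 FPKM in macrophages 5, 6, 7 and 8 and was listed at 0 in every microglial library. Macrophage 8 was the highest and macrophage 7 carried roughly 6.9 fragments of it by the depth estimate. The fitted difference was 3.47 ± 0.92 (SE) with a limma adjusted p of 0.0813, and the exact permutation p was 0.0286. Without macrophage 7, both Ccr7 (adjusted p = 0.00463 by limma) and Ccl22 (0.0141) passed the threshold, beside Ccl17 (0.00079). Over the alternatives in which each was tested, the limma adjusted p ran from 0.00187 to 0.9999 for Ccr7 and from 0.0141 to 0.9999 for Ccl22. The chemokines that Ccr7 recognises were at or near 0: Ccl19 was listed at 0 in all 8 libraries, and Ccl21a, Ccl21b and Ccl21c reached at most 0.181 FPKM, each in microglia 4. All of these have entries at several positions in mm9, and how reads shared between copies were divided is unknown, so the values are uncertain. The libraries are of phagocytes and do not describe these chemokines in the retina as a whole. Ccr4 reached at most 0.578 FPKM in macrophages and 0.472 in microglia.

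Lymphocytes also carry Ccr7, so their markers are given beside it. The 12 T cell markers summed to between 2.28 and 11.96 FPKM in macrophages and between 0.0787 and 4.75 in microglia, and 8 of them, Cd3e, Cd3d and Cd4 included, stayed below 1 FPKM in all 8 libraries. Il7r, the interleukin-7 receptor and the most abundant of them, stood at 1.73, 0.688, 3.99 and 10.4 FPKM in macrophages 5, 6, 7 and 8 and at most 2.92 in microglia, and was highest where Ccr7 was highest. The 8 B cell markers summed to between 6.41 and 17.6 FPKM in macrophages and between 0.0174 and 40.7 in microglia, and Cd79a and Pax5 stayed below 1 FPKM throughout. Cd79b, a chain of the B cell receptor complex, stood at 13.9, 4.24, 3.36 and 6.91 FPKM in macrophages 5, 6, 7 and 8 and reached 34.8 in microglia 4, and Cd22 reached 5.85 in macrophages and 14.2 in microglia. Natural killer cell markers summed to 25.9 FPKM in macrophage 8, where Ccr7 was highest, and to between 3.55 and 10.4 in macrophages 5, 6 and 7, against 0.0950 to 3.29 in microglia. Klrd1, the CD94 receptor, stood at 9.17, 3.04 and 20.6 FPKM in macrophages 5, 6 and 8 and was listed at 0 in the other 5 libraries. Klrb1c and Prf1 of that list stayed below 1 FPKM in all 8 libraries. The part of T, B or natural killer cells in the Ccr7 level was not tested.

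Flt3, the growth factor receptor of dendritic cell progenitors and conventional dendritic cells, lies on chromosome 5 (148142317 to 148212065). It stood at 4.93, 4.74, 0.0242 and 24.4 FPKM in macrophages 5, 6, 7 and 8, against 2.19, 0.207 and 0.252 FPKM in microglia 2, 3 and 4 and a value listed at 0 in microglia 1. The range among macrophages was far wider than that among microglia, and macrophage 7, at about 2.1 fragments, lay below microglia 2, 3 and 4. The difference of 1.88 ± 0.83 (SE) did not pass (adjusted p = 0.316 by limma, exact permutation p = 0.114). Flt3l, the ligand, ranged from 0.641 to 3.96 FPKM in macrophages and up to 1.31 in microglia (adjusted p = 0.365 by limma).

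Zbtb46, the transcription factor that sets conventional dendritic cells apart from macrophages, lies on chromosome 2 (181125591 to 181194131). It stood at 5.66, 0.669 and 10.1 FPKM in macrophages 5, 7 and 8 and at 2.39 FPKM in microglia 3, and was listed at 0 in macrophage 6 and in microglia 1, 2 and 4. Macrophage 6 thus listed Zbtb46 at 0 while it held the most Ccl17 of all libraries. That value is not marked as failed, since symbols so marked were left out. Whether the 0 is an error of estimation all the same is unknown. The difference was 1.30 ± 0.77 (SE) and did not pass (adjusted p = 0.463 by limma, exact permutation p = 0.257).

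Of the branch genes, Batf3, a partner of AP-1 factors needed for cross-presenting dendritic cells, was the steadiest in macrophages. It lies on chromosome 1 (192922293 to 192932822) and stood at 15.6, 17.1, 12.3 and 14.5 FPKM in macrophages 5, 6, 7 and 8, an average of 14.9 ± 2.01 (SD, n = 4). Microglia gave 3.59, 0.189, 23.2 and 4.41 FPKM in libraries 1 to 4, an average of 7.85 ± 10.4 (SD, n = 4), with microglia 3 above every macrophage library. The difference of 1.61 ± 0.76 (SE) did not pass (adjusted p = 0.353 by limma, exact permutation p = 0.143).

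Xcr1, the receptor for the chemokine Xcl1 that is found on that same branch, stood at 0.389, 3.04, 1.52 and 5.08 FPKM in macrophages 5, 6, 7 and 8, against 0.0387, 0.199, 0.0808 and 0.686 FPKM in microglia 1 to 4. Macrophage 5 lay below microglia 4, and the other 3 macrophage libraries lay above all microglia. Macrophages averaged 2.51 ± 2.03 FPKM, against 0.251 ± 0.298 FPKM for microglia (SD, n = 4 each), for a difference of 1.31 ± 0.59 (SE) at an adjusted p of 0.327 by limma (exact permutation p = 0.0571). Its gene is on chromosome 9 (123761436 to 123771246). Xcl1 was listed at 0 in all 8 libraries. Clec9a, the receptor for dead cells that marks the branch, stayed below 1 FPKM throughout, at 0.825 FPKM in macrophage 5, 0.0416 in macrophage 7 and 0.471 in macrophage 8, and at most 0.0152 in microglia.

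Irf4, the interferon regulatory factor of the other branch, was the least abundant of the 9 genes and fell below the limit of a mean of 1 FPKM, so it has no adjusted p. It stood at 0.218, 2.43, 0.00932 and 2.21 FPKM in macrophages 5, 6, 7 and 8, against 0.797, 0.172 and 0.0921 FPKM in microglia 1, 2 and 4 and a value listed at 0 in microglia 3. Macrophages 6 and 8 lay above all microglia, and macrophages 5 and 7 lay within their range. The macrophage 7 value amounts to about 1.0 fragment. The exact permutation test gave p = 0.257. Irf4 lies on chromosome 13 (30841127 to 30858796).

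Cd209a, a C-type lectin of the DC-SIGN family found on Irf4-dependent and on monocyte-derived dendritic cells, lies on chromosome 8 (3743395 to 3748984). It stood at 6.24, 24.8, 1.70 and 16.4 FPKM in macrophages 5, 6, 7 and 8, against 8.92 and 2.04 FPKM in microglia 3 and 4 and values listed at 0 in microglia 1 and 2. Microglia 3 lay above macrophages 5 and 7, so the groups overlapped. The difference of 2.05 ± 0.86 (SE) did not pass (adjusted p = 0.297 by limma, exact permutation p = 0.143). By median level in macrophages the 9 genes ran from Ccl17 at 34.2 FPKM through Batf3 at 15.1, Ccr7 at 13.4, Cd209a at 11.3, Ccl22 at 10.7, Flt3 at 4.84, Zbtb46 at 3.16 and Xcr1 at 2.28 to Irf4 at 1.21. The ranges over macrophage libraries of all neighbours in this order overlap.

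**Figure D2:**
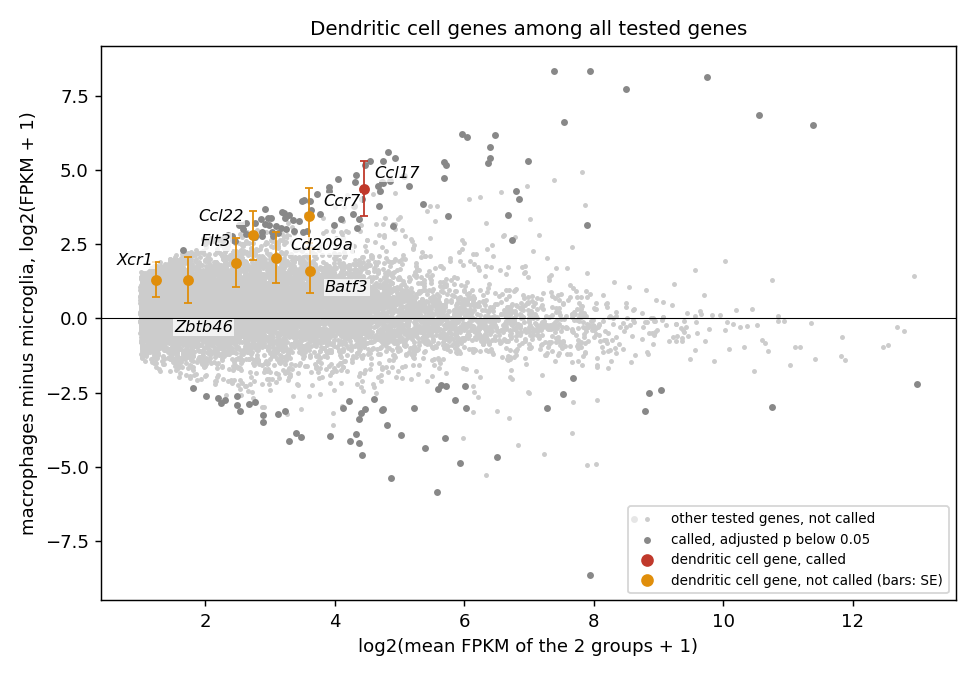
Difference between macrophages and microglia for each of the 10295 tested genes against its mean level, with 8 of the 9 dendritic cell genes marked (bars are SE). All 8 lie above 0 and Ccl17, at 4.37, is the one that was called.

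All 8 tested genes had positive differences, with a median of 1.96, against a median of 0.36 over all tested genes, of which 65.7% were positive. Since several passed the limit on low values through the macrophage libraries alone, this median is a description and supports nothing.

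Macrophage 7 differed from the other macrophage libraries in most of these genes. It was the lowest macrophage library for 7 of the 9, all but Zbtb46 and Xcr1, and 56.8% of all tested genes were lowest there too. After equal-sum, upper-quartile or median-of-ratios scaling it was lowest for 6, without Batf3, against 39.7%, 30.3% and 31.9% of all tested genes. For 5 genes, Flt3, Irf4, Ccr7, Ccl17 and Ccl22, it lay at least 10-fold below each of macrophages 5, 6 and 8, which held for 6.16% of all tested genes. At 5-fold it was the same 5 genes and 10.2% of all tested. Irf4 is not among the tested genes behind these shares, and its fold rests on about 1.0 fragment in macrophage 7. Flt3 was 204-fold, 196-fold and 1008-fold lower in macrophage 7 than in macrophages 5, 6 and 8, and Ccr7 was 95.5-fold, 67.5-fold and 378-fold lower. Ccl17 was 44.8-fold, 90.9-fold and 19.1-fold lower, and Ccl22 48.2-fold, 306-fold and 226-fold lower. After upper-quartile scaling the folds were smaller, at 119, 73.7 and 556 for Flt3, 55.5, 25.4 and 208.5 for Ccr7, 26.0, 34.2 and 10.5 for Ccl17, and 28.0, 115 and 125 for Ccl22. These are ratios of single libraries with no replicate check, and the low macrophage 7 values rest on few fragments.

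Cd209a, Zbtb46, Batf3 and Xcr1 did not pass either limit. Zbtb46 was 8.46-fold and 15.1-fold lower in macrophage 7 than in macrophages 5 and 8. Cd209a was 3.68-fold to 14.6-fold lower there than in the other 3 libraries. Batf3 was 1.18-fold to 1.39-fold lower, and after upper-quartile or median-of-ratios scaling it was higher in macrophage 7 than in each of them. Xcr1 was 3.91 times its macrophage 5 level in macrophage 7, and 0.501 and 0.299 times its levels in macrophages 6 and 8. Under each of the 3 scalings Xcr1 was higher in macrophage 7 than in macrophage 6 as well. The 5 genes named above remained at least 10-fold lower under equal-sum, upper-quartile and median-of-ratios scaling, as did between 4.31% and 4.78% of tested genes.

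**Figure D3:**
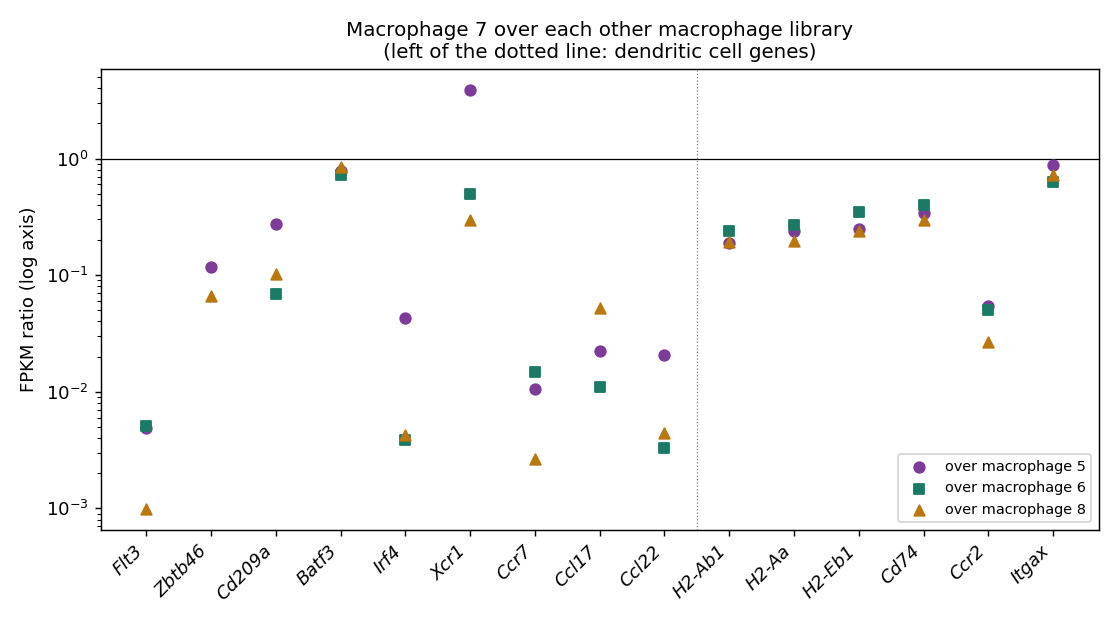
Deposited FPKM of macrophage 7 divided by that of macrophages 5, 6 and 8, on a log axis, for the 9 genes and, right of the dotted line, for 4 class II genes, Ccr2 and Itgax. Flt3, Irf4, Ccr7, Ccl17 and Ccl22 lie below 0.1 in all 3 ratios, while the class II genes lie between 0.188 and 0.396 and Itgax between 0.628 and 0.876; Zbtb46 has no ratio to macrophage 6, where it is listed at 0.

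For scale, the median gene was 1.72-fold, 2.89-fold and 1.69-fold lower in macrophage 7 than in macrophages 5, 6 and 8, over 9274 genes. The class II genes that dendritic cells share with activated macrophages were 2.53-fold to 5.32-fold lower as deposited. Against macrophage 6, Cd74 (2.53-fold) and H2-Eb1 (2.87-fold) were lower by no more than the median gene, and Cd74 was higher in macrophage 7 after upper-quartile scaling. H2-Ab1, H2-Aa, H2-Eb1 and Cd74 together summed to 13313, 11112, 3631 and 14666 FPKM in macrophages 5, 6, 7 and 8. Set against 1000 FPKM of these class II transcripts, all 9 genes together came to 7.56, 16.6, 4.83 and 11.8 FPKM in the same libraries. Ccl17, Ccl22 and Ccr7, already named as at least 10-fold lower in macrophage 7, together came to 5.07, 11.9, 0.362 and 6.85 FPKM. Itgax, the integrin CD11c of dendritic cells and many macrophages, stood at 40.8 FPKM in macrophage 7 and between 46.5 and 64.9 in the others, and after upper-quartile or median-of-ratios scaling it was higher in macrophage 7 than in each of them. Ccr2 stood at 2.64 FPKM in macrophage 7 and between 49.0 and 99.4 in the others, so that marker of monocyte origin was lower in the same library. Y-linked transcripts summed to 1.97 FPKM in macrophage 7, nearly all of it Eif2s3y (1.96), and to at most 0.221 in macrophages 5, 6 and 8. Xist was also highest there among macrophages, at 7.94 FPKM. The part of monocyte origin or of Y-linked expression in these differences was not tested.

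Macrophages 5, 6 and 8 also differed among themselves. At least 1 FPKM was reached by 7, 8, 4 and 9 of the 9 genes in macrophages 5, 6, 7 and 8, against 1, 1, 3 and 2 in microglia 1 to 4. Macrophage 8 was the highest of all 8 libraries for Flt3, Zbtb46, Xcr1 and Ccr7, and macrophage 6 for Cd209a, Irf4, Ccl17 and Ccl22, as deposited. Among macrophages, library 8 kept its 4 genes under all 3 scalings and was also highest for Irf4 and Ccl22, and at an equal sum for Cd209a, so that of the 4 genes of library 6 Ccl17 alone stayed there throughout. In the whole table macrophage 6 was the highest macrophage library for 62.4% of tested genes and macrophage 8 for 17.1%. Microglia 3 was the highest microglial library for Zbtb46, Cd209a, Batf3 and Ccl17, 4 of the 9 genes, and for 29.8% of tested genes. Its 6 erythroid transcripts summed to 2437 FPKM, against 0.683 to 165 in the other microglial libraries and 0.693 to 23.7 in macrophages. The part of blood in these values was not tested.

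Further dendritic cell genes were grouped by role. Over all tested genes limma called 0.971% higher and 0.534% lower, and had 10.9% and 3.39% at an unadjusted p below 0.05. The 10 tested genes of dendritic cell commitment and maintenance had a median difference of 1.84. At an unadjusted p below 0.05 by limma, 7 were higher and 0 lower. After adjustment, 1 was called higher in macrophages and 0 lower. That gene was Itgax, with 52.1 ± 10.6 FPKM in macrophages against 5.75 ± 4.05 FPKM in microglia (SD, n = 4 each), for a difference of 3.13 at an adjusted p of 0.00720 by limma. Btla, an inhibitory receptor of lymphocytes and dendritic cells, and Amica1, a junctional adhesion molecule, did not pass (adjusted p = 0.148 and 0.0813 by limma). Btla stood at 4.31, 6.69, 0.0689 and 19.9 FPKM in macrophages 5, 6, 7 and 8 and was listed at 0 in microglia.

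Of 8 tested genes of the Irf4-linked type 2 conventional dendritic cells, 2 were called higher and 0 lower, with a median difference of 1.27. At an unadjusted p below 0.05 by limma, 4 were higher and 0 lower (10.9% and 3.39% of all tested genes). Of the 8 differences 6 were positive. Sirpa, the most abundant gene of the list, and Tnip3 went the other way, at -0.67 and -0.53 (adjusted p = 0.513 and 0.760 by limma). Mgl2, a galactose-binding lectin that marks such cells and alternatively activated macrophages, had a mean of 31.2 ± 16.5 FPKM across macrophages, against 0.0774 ± 0.0550 FPKM across microglia (SD, n = 4 each), a difference of 4.70 with an adjusted p of 0.000685 by limma. Clec10a, its close relative, stood at 10.1, 16.9, 1.63 and 11.1 FPKM in macrophages 5, 6, 7 and 8 and was listed at 0 in microglia (adjusted p = 0.0224 by limma). Mgl2 and Clec10a are close paralogs, and how the estimates divided any shared reads between them is unknown, so both values are uncertain.

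Of 8 tested genes of Batf3-linked type 1 conventional dendritic cells 0 were called in either direction by limma, with a median difference of 0.09, and 2 were higher and 0 lower at an unadjusted p below 0.05 (10.9% and 3.39% of all tested genes). Id2, an inhibitor of helix-loop-helix factors and the most abundant of that list, ranged from 34.4 to 201 FPKM in macrophages and from 56.7 to 117.1 in microglia (adjusted p = 0.881 by limma). Of 20 tested genes of mature, migrating dendritic cells, 0 were called by limma, with a median of 0.09 and 13 positive differences, and 6 were higher and 1 lower at an unadjusted p below 0.05 (10.9% and 3.39% of all tested genes). Ccl5, the T cell chemokine and the most abundant of them, ranged from 58.5 to 277 FPKM in macrophages and from 80.0 to 232 in microglia (adjusted p = 0.975 by limma). Fscn1, the actin-bundling protein fascin, stood at 2.42, 2.55, 0.0848 and 5.76 FPKM in macrophages 5, 6, 7 and 8, against 3.35 to 4.02 in microglia. Cacnb3, a calcium channel subunit used as a marker of migrating dendritic cells, stood at 5.88, 7.89, 0.593 and 15.1 FPKM in macrophages 5, 6, 7 and 8, and at most 0.539 in microglia (adjusted p = 0.102 by limma).

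Among 6 tested genes of plasmacytoid dendritic cells, the interferon-producing kind, 1 was called lower and 0 higher (0.534% and 0.971% of all tested genes). It was Siglech, which microglia also carry and which stood on the microglial list too, with 3.88 ± 3.51 FPKM in macrophages against 31.3 ± 17.8 FPKM in microglia (SD, n = 4 each; adjusted p = 0.0474 by limma). Ly6d and Spib, more particular to plasmacytoid cells and B cells, reached at most 1.58 and 1.74 FPKM, both in macrophage 8. Of 11 class II genes 4 were called higher and 0 lower, with a median of 1.84. Of 10 monocyte genes 5 were called higher and 0 lower, with a median of 2.97. At an unadjusted p below 0.05 by limma, 7 genes of each list were higher and 0 lower (10.9% and 3.39% of all tested genes). Of 11 genes that separate macrophages from dendritic cells, 0 were called by limma, with a median of -0.38. There, 1 was higher and 3 lower at an unadjusted p below 0.05 (10.9% and 3.39% of all tested genes). The complement gene C1qb, the most abundant of these, ranged from 1613 to 6812 FPKM in macrophages and from 5990 to 8791 in microglia (adjusted p = 0.281 by limma). By mean FPKM the most abundant called class II genes were Cd74, H2-Ab1 and H2-Aa, with differences of 6.53, 6.85 and 8.15. The most abundant called monocyte genes were Ly6c2, Plac8 and Ly6c1, with differences of 6.19, 5.28 and 4.57. None of these medians was tested against that of all genes, 0.36. Some listed genes near 0 in microglia entered the tests through the macrophage libraries alone, so the list counts are descriptions.

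**Figure D4:**
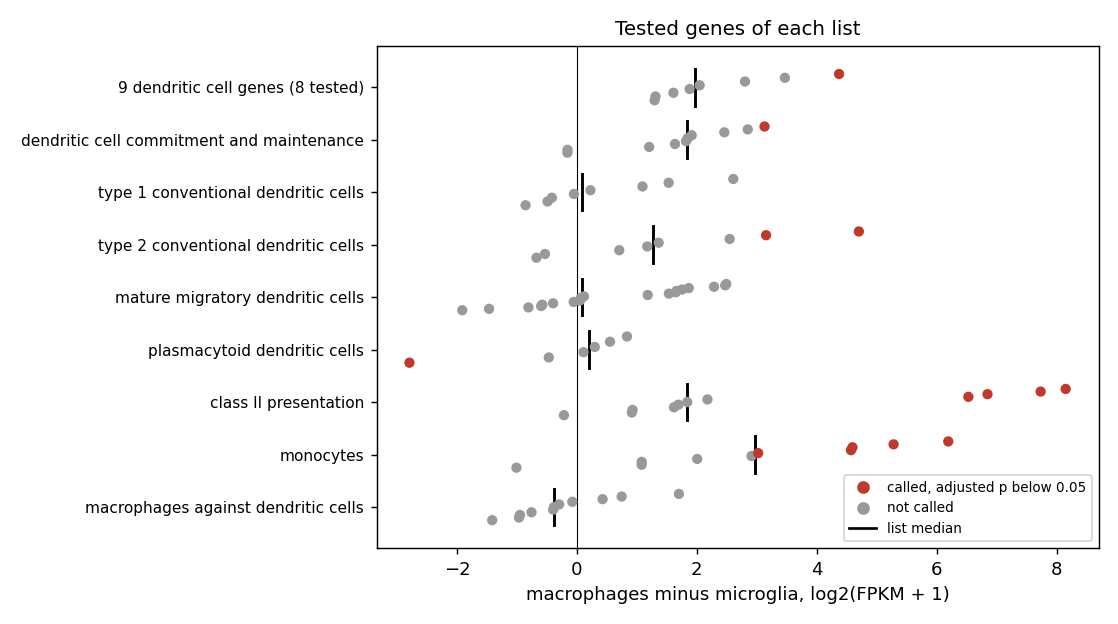
Difference between macrophages and microglia for each tested gene of 9 lists, with called genes in red and the median of each list as a black bar. The class II and monocyte lists hold 4 and 5 called genes, the 9 dendritic cell genes 1, and the lists of type 1 and of mature dendritic cells none.

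Genes most like each of the 9 were sought among 9069 tested genes by the root-mean-square difference of log2(FPKM + 1) over the 8 libraries, after subtracting each gene's own mean. For Ccr7 these were Cdh1 (root-mean-square difference 0.27), which encodes E-cadherin, Kmo (0.50), an enzyme of tryptophan breakdown, and Il1r2 (0.55), a decoy receptor for interleukin-1. Cdh1 stood at 12.1, 14.4, 0.0133 and 43.2 FPKM in macrophages 5, 6, 7 and 8 and at most 0.154 in microglia. For Flt3 they were Cytip (0.55), an adaptor of the cytohesin family, Btla (0.58) and the zinc finger gene Zfp52 (0.58). For Ccl22 they were Trem1 (0.38), an activating receptor of myeloid cells, Chi3l3 (0.44), the chitinase-like protein Ym1, and Amica1 (0.44). Ccl17 had looser matches, Ly6c1, Sirpb1a and Emb, all at 0.76.

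The remaining genes were matched as follows. Batf3 lay nearest Tnip2 (0.30), Kctd2 (0.31) and Inpp5k (0.33), each of which had its highest microglial value in microglia 3, as Batf3 did. Cd209a lay nearest Coro2a (0.52), Mrps9 (0.53) and Irak4 (0.55), and Zbtb46 nearest Twsg1 (0.41), Athl1 (0.46) and Pira7 (0.53). Xcr1 lay nearest Abcb10 (0.28), Bms1 (0.30) and Zfp322a (0.31), and Irf4 nearest Snupn (0.19), Ccdc127 (0.24) and Cox15 (0.28). Among the 9 themselves the closest pairs were Irf4 with Xcr1 (0.60) and Ccr7 with Ccl22 (0.91), and the farthest was Zbtb46 with Ccl17 (2.37). Genes with a narrow range, such as Irf4, lie close to many others by this measure.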

How the data were processed

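The tools named are bcl2fastq 1.8.4 and Cufflinks 2.1.1, with build mm9, per the submitters' processing notes. No aligner or annotation is named in these sources. Each deposited table holds the authors' FPKM per gene for 1 library, with start positions counted from 0, printed here from 1. Rows sharing a symbol were summed, and 9 symbols with a failed status were left out of 22558. FPKM are not counts, so no count test was run. FPKM does not correct for composition. Genes whose mean over the 8 libraries reached 1 FPKM were tested on log2(FPKM + 1) in limma 3.58.1 (R 4.3.3), two-sided, with an intensity trend and Benjamini-Hochberg adjustment over all genes. This scale understates changes of low genes. The filter ignores the groups, but was chosen partly to keep genes present in fewer than 4 libraries, several dendritic cell genes among them. With at least 1 FPKM required in 4 of 8 libraries, 4 of the 9 genes were tested. Single genes also had an exact permutation test over libraries. Tables used Python 3.11.15 with pandas 2.3.3 and numpy 2.4.6. The depth estimate took transcript lengths from GENCODE on NCBIM37, the same assembly as mm9, less an assumed fragment length of 150, and is approximate.

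By rule the named genes are the 9 genes, in each list at most the 3 called genes with the highest mean FPKM (the most abundant where none was called), and the 3 nearest genes to each of the 9; those of lists that bear on no result are left out. Sall1, Tmem119, Fcrls, Cx3cr1, Ccr2, H2-Eb1, the Y-linked genes, Xist, Flt3l, the ligands and receptors, Clec9a, Btla, Amica1, Sirpa, Tnip3, the lymphocyte and natural killer markers other than Il7r, Cd79b and Klrd1, Fscn1, Cacnb3, Ly6d, Spib and the neighbours of Ccl17 were singled out after their values were seen. The members and lists were chosen with earlier results of these data known. In 10 simulations of the comparison, each with 10295 genes, limma found 17.5% of genes changed by 2 and 80.0% of those changed by 4 on the log2 scale, and 4.22% of its calls were false. The simulated noise was independent for each gene, with no shift shared by a library, and no gene of low level was changed. The real libraries do share shifts: macrophage 7 was the lowest macrophage library for 56.8% of tested genes. These rates may therefore not hold for the real data.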

Additional observations from a re-analysis of the deposited data

Results flagged for a closer look

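In each population the 4 values of each gene were screened for a library whose distance to its nearest neighbour made up most of the whole range, by Dixon's critical value. For normally distributed values this screen flags about 1 group in 20 by chance, and 3 of 18 groups were flagged, all microglial. Ccr7 and Ccl22 in microglia, listed at 0 throughout, have no range and could not be flagged. Flt3 stood at 2.19 FPKM in microglia 2, the highest of its group, with a ratio of 0.885. Zbtb46 stood at 2.39 FPKM in microglia 3 and Ccl17 at 0.164 FPKM in the same library, where the ratio is 1 because the other 3 microglial libraries were listed at 0. The Ccl17 value amounts to about 1.1 fragments. No macrophage group was flagged. The screen used FPKM itself, where a value near 0 is flagged only if the other values of its group lie close together. They did not for Flt3, Irf4, Ccr7, Ccl17 or Ccl22, so the screen could not flag macrophage 7 for these genes.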

How the results depend on the processing

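Of 117 differences of single dendritic cell genes that an alternative moved, 0 changed direction. Those of Ccl17, Ccr7 and Ccl22 could not when libraries were left out, as every macrophage library lay above every microglial one. Nor could those of Ccr7 and Ccl22 when libraries were scaled by a factor, as their microglial values are all 0. With the Y-linked term they could, so the count of 0 was partly fixed in advance. Genes called higher numbered 100, and 154 with the filter of at least 1 FPKM in 4 of 8 libraries, 30 with no filter, 164 at an equal FPKM sum, 577 with library weights, 15 with the Y-linked term and 53 without microglia 2 and 3. They ranged from 52 to 149 when single libraries were left out. Genes called lower numbered 55, and 20 with no filter, 83 after median-of-ratios scaling, 116 after quantile normalization, 253 with library weights and 22 with the Y-linked term, ranging from 32 to 76 when single libraries were left out. The dendritic cell genes called higher numbered 1, and 6 with library weights (Ccl17, Ccr7, Ccl22, Flt3, Zbtb46 and Cd209a), but 0 with no filter, 0 with the Y-linked term and 0 without microglia 2 and 3, and from 0 (without microglia 1 or macrophage 5, 6 or 8) to 3 (without macrophage 7) when single libraries were left out. Those called lower numbered 0 throughout.

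With no filter, 20454 genes were tested and Ccl17 had an adjusted p of 0.288 by limma, against 0.123 without microglia 2 and 3. The share of calls that were higher, 64.5%, was 51.0%, 54.1% and 53.6% under upper-quartile, median-of-ratios and quantile scaling, 40.5% with the Y-linked term, 43.3% without macrophage 6 and 76.8% without macrophage 7. The median difference of all genes, 0.36, was -0.03, 0.12 and -0.03 under those 3 scalings and 0.46 at an equal FPKM sum, and that of Ccl17 was 4.05, 4.04, 3.93 and 4.44. The causes were not tested. No paired analysis was possible because the populations share no library number. At these depths 1 fragment of Flt3 is worth between 0.011 and 0.023 FPKM.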
